A study of Saccharomyces cerevisiae with 6 samples.

Results

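MPC1, MPC2, MPC3, RGI1 and RGI2 are 5 of the 6362 genes measured on these arrays. MPC1, MPC2 and MPC3 encode the subunits of the mitochondrial pyruvate carrier of budding yeast, and RGI1 and RGI2 encode a pair of related proteins of respiratory growth. The genes were found by their standard names, through the systematic names YGL080W (MPC1), YHR162W (MPC2), YGR243W (MPC3), YER067W (RGI1) and YIL057C (RGI2), and each had 1 row on the array. They were chosen on their measured log2 ratios on these same 6 arrays, with earlier results known, so all their values are given as a description, with no test.

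The pyruvate carrier sits in the inner mitochondrial membrane and lets pyruvate made by glycolysis in the cytosol enter the matrix, where pyruvate dehydrogenase turns it into acetyl-CoA. Mpc1 is the common partner in the carrier: it pairs with Mpc2 in fermenting cells and with Mpc3 in respiring cells. MPC2 and MPC3 are close paralogs. RGI1 and RGI2 are paralogs too, their products are needed for full growth on carbon sources that must be respired, and how the proteins act is not known.

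The arrays set haploid Saccharomyces cerevisiae cells after 4 h with the compound 089, at 0.2 mM, against untreated cells of the same strain, in 2 colours. The labels describe 089 as a bicyclic compound that carries a benzhydryl group, a phenyl group and an ethylamide. One group was BY4742derg6, an erg6::kanMX4 deletion strain, which lacks a sterol methyltransferase of the ergosterol pathway. Another was BY4742dsnq2, a snq2::kanMX deletion strain, which lacks a multidrug transporter of the plasma membrane. The parental group was BY4742, and all 3 strains carried MATα his3 leu2 lys2 ura3. Treated and untreated cells were shaken at high density in YPD with 2% glucose at pH 4.8 and 28 °C. Each strain had 2 arrays, given in the series text as biological replicates, and each deletion was represented by 1 strain.

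The deposited values are read here as log2 ratios of treated over untreated cells, so that a value above 0 means more transcript in treated cells. This direction follows the order of the words in the sample titles and is likely, not stated: the opposite direction would turn every sign below. Treated cells carried Cy5 on all 6 arrays, and a dye effect specific to a gene would stay in each strain's ratio. Because whole cultures were measured, fewer cells with a transcript and less of it per cell cannot be told apart.

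Over all genes the replicate arrays correlated at r = 0.713 in the erg6 deletion strain, 0.916 in the snq2 deletion strain and 0.901 in the parental strain, and the strain medians were -0.11, -0.03 and -0.02 in the same order. The 683 control spots, named blank or empty, did not centre on 0: the central 95% of them lay between -1.87 and 3.57 in the erg6 deletion strain, between -1.43 and 2.00 in the snq2 deletion strain and between -1.36 and 2.49 in the parental strain. Both channels of an array came from the same strain, so the ratios do not check the deletions. ERG6 had -0.65 and -0.85 in the erg6 deletion strain, 0.17 and 0.38 in the snq2 deletion strain and -0.66 and -0.43 in the parental strain. Its mean in the erg6 deletion strain was -0.75 (standard error 0.11). If the deletion holds, a feature without its own transcript can thus give a ratio of this size on both arrays. The source of that signal was not tested. SNQ2 had 0.22 and 0.11 in the erg6 deletion strain, 0.22 and 0.03 in the snq2 deletion strain and -0.34 and -0.36 in the parental strain.

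MPC3, the subunit of respiring cells, had the largest ratios of the 3 carrier genes in both deletion strains. Its log2 ratios were 1.31 and 1.41 in the erg6 deletion strain, 2.17 and 2.55 in the snq2 deletion strain, and -0.60 and -0.41 in the parental strain. The ratios thus lay above 0 on all 4 deletion arrays and below 0 on both parental arrays, with no overlap between any pair of strains. In the erg6 deletion strain 412 of the 683 control spots had ratios at or above the MPC3 mean. The means were 1.36 in the erg6 deletion strain, 2.36 in the snq2 deletion strain and -0.50 in the parental strain (standard error of the fit 0.12, n = 2 each). As ratios of treated over untreated these are 2.56, 5.13 and 0.705.

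MPC1, the subunit common to both forms of the carrier, had log2 ratios of 0.23 and 0.29 in the erg6 deletion strain, 0.43 and 0.91 in the snq2 deletion strain, and -0.91 and -0.71 in the parental strain. Its pattern over the strains had the same signs as that of MPC3 with smaller values in the deletion strains and a lower one in the parental strain. The means were 0.26, 0.67 and -0.81 in the same order of strains (standard error 0.13), or ratios of 1.20, 1.59 and 0.569. The replicates of the snq2 deletion strain lay 0.48 apart, the widest spread among the 5 genes, and the gap of 0.14 between the deletion strains was smaller than that spread.

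MPC2, the subunit of fermenting cells, had log2 ratios of 0.73 and 0.77 in the erg6 deletion strain, 0.0054 and 0.18 in the snq2 deletion strain, and -0.15 and -0.19 in the parental strain. It was the 1 member whose ratio was higher in the erg6 deletion strain than in the snq2 deletion strain. The means were 0.75, 0.094 and -0.17 (standard error 0.09), or ratios of 1.68, 1.07 and 0.887. The snq2 deletion and parental strains were separated by 0.16, less than the 0.18 between the replicates of the snq2 deletion strain.

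RGI1 was the only one of the 5 genes with a mean above 0.5 in the parental strain. Its log2 ratios were 1.81 and 1.65 in the erg6 deletion strain, 2.46 and 2.63 in the snq2 deletion strain, and 0.79 and 0.71 in the parental strain. The ratios therefore lay above 0 on all 6 arrays, in the order snq2 deletion, erg6 deletion, parental. The means were 1.73, 2.55 and 0.75 for the erg6 deletion, snq2 deletion and parental strains (standard error 0.09), or ratios of 3.32, 5.84 and 1.68.

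RGI2 had the highest single value of the 5 genes. Its log2 ratios were 1.31 and 1.37 in the erg6 deletion strain, 3.35 and 3.43 in the snq2 deletion strain, and 0.32 and 0.27 in the parental strain. The values of the 3 strains did not overlap, and no replicate pair lay more than 0.09 apart. The means were 1.34, 3.39 and 0.29 (standard error 0.08), or ratios of 2.53, 10.5 and 1.22. With quantile normalization of the arrays the value in the snq2 deletion strain was 4.07. If the deposited values were natural logarithms, the ratio of RGI2 in the snq2 deletion strain would be 29.7 in place of 10.5.

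**Figure D1:**
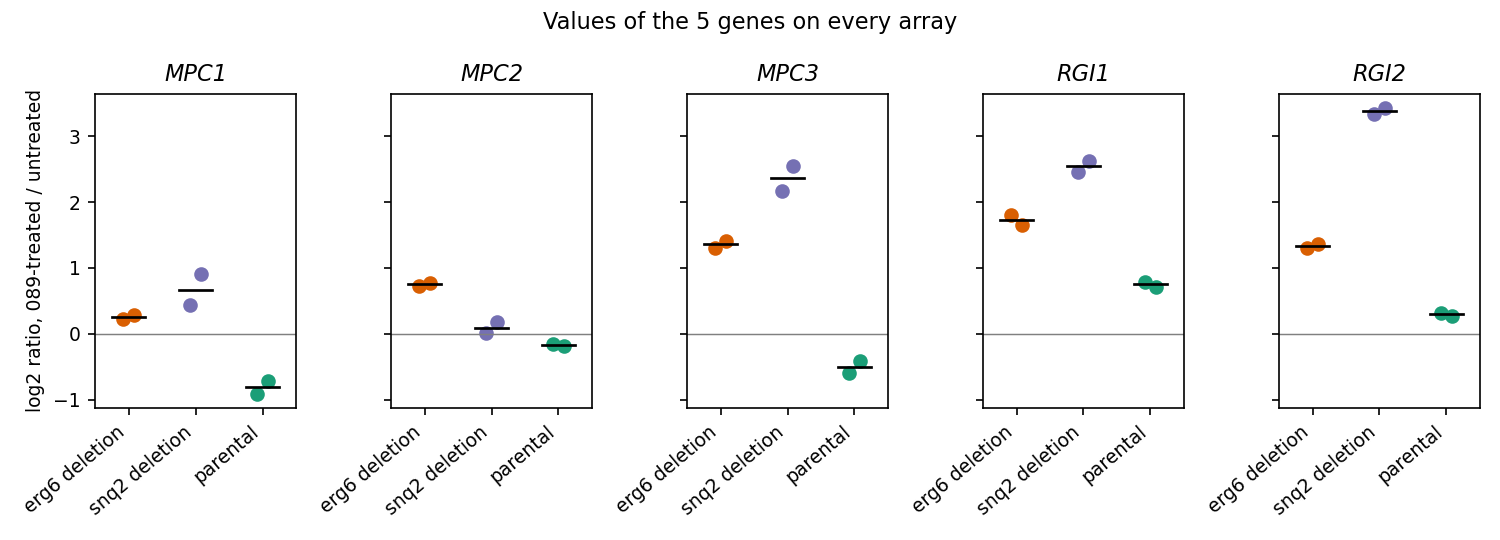
Log2 ratio of treated over untreated cells (vertical axis) of the 5 genes on each of the 6 arrays, by strain, with the erg6 deletion and snq2 deletion strains left of the parental strain; points are arrays and bars mark strain means. MPC3 and RGI2 are highest in the snq2 deletion strain, at means of 2.36 and 3.39, and MPC1, MPC2 and MPC3 lie below 0 on both parental arrays.

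Set against the parental strain, all 5 genes had higher ratios on both arrays of each deletion strain. For the erg6 deletion strain, 35.3% of all genes lay above the parental values without overlap, and for the snq2 deletion strain 33.3% did. The differences of the erg6 deletion strain minus the parental strain were 1.07 for MPC1, 0.92 for MPC2, 1.86 for MPC3, 0.98 for RGI1 and 1.05 for RGI2, with standard errors between 0.11 and 0.19. The differences of the snq2 deletion strain minus the parental strain were 1.49 for MPC1, 0.27 for MPC2, 2.86 for MPC3, 1.80 for RGI1 and 3.10 for RGI2, with the same standard errors. Both sets of differences use the same 2 parental arrays, so they are not independent of each other. With quantile normalization RGI1 differed by 1.54 for the erg6 deletion strain, in place of 0.98, and RGI2 by 3.81 for the snq2 deletion strain.

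Between the deletion strains, 4 of the 5 genes had higher ratios in the snq2 deletion strain without overlap, beside 41.2% of all genes. The differences of the snq2 deletion minus the erg6 deletion strain were 0.41 for MPC1, -0.66 for MPC2, 1.00 for MPC3, 0.81 for RGI1 and 2.05 for RGI2. The order snq2 deletion, erg6 deletion, parental without overlap held for MPC1, MPC3, RGI1 and RGI2 and for 4.37% of all genes. All 5 genes had values above 0 on both arrays of the erg6 deletion strain, beside 34.7% of all genes, and on both arrays of the snq2 deletion strain, beside 42.1%. On both parental arrays RGI1 and RGI2 had values above 0, beside 42.7% of all genes, and MPC1, MPC2 and MPC3 had values below 0, beside 45.6%. Values above 0 on all 4 deletion arrays and below 0 on both parental arrays were found for MPC1, MPC2 and MPC3 and for 7.39% of all genes. Since the genes were chosen with such values known, these counts describe them and support nothing further. The step of MPC1 between the deletion strains was narrower than the replicate spread beside it. So was that of MPC2 between the snq2 deletion and parental strains. How many of all genes have wider steps was not counted.

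Ranked among the 6362 genes from the highest strain mean, RGI2 was number 2, RGI1 number 8 and MPC3 number 10 in the snq2 deletion strain. In the erg6 deletion strain RGI1 was number 19, MPC3 number 110 and RGI2 number 115. In the parental strain the highest of the 5 was RGI1 at number 929, and MPC1 was the lowest at number 5640. MPC1 and MPC2 stood far from the top in the deletion strains, with MPC2 at number 689 and MPC1 at number 1889 in the erg6 deletion strain, and MPC1 at number 835 and MPC2 at number 2660 in the snq2 deletion strain.

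The control spots set a limit on these ratios. In the snq2 deletion strain no control spot reached the mean of RGI2, 4 reached that of RGI1 and 6 that of MPC3, of 683. In the erg6 deletion strain 349 control spots lay at or above the mean of RGI1, 412 at or above that of MPC3 and 413 at or above that of RGI2. The empty spots had a median of 2.11 in that strain, above the means of all 5 genes there. Their median was 0.55 in the snq2 deletion strain and 0.70 in the parental strain. Whether the erg6 deletion values of the 5 genes differ from the ratios of such spots was not tested. All 5 genes lay inside the central range of the control spots in the erg6 deletion strain and in the parental strain. The rises given below for PDA1, LPD1, ALD4, JEN1, GUT2 and ADY2 in the erg6 deletion strain also lay inside that range and below the empty-spot median. Their tests against 0 do not use the control spots. Spot brightness was not analysed here, so how far the signal of each gene stood above background was not tested.

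**Figure D2:**
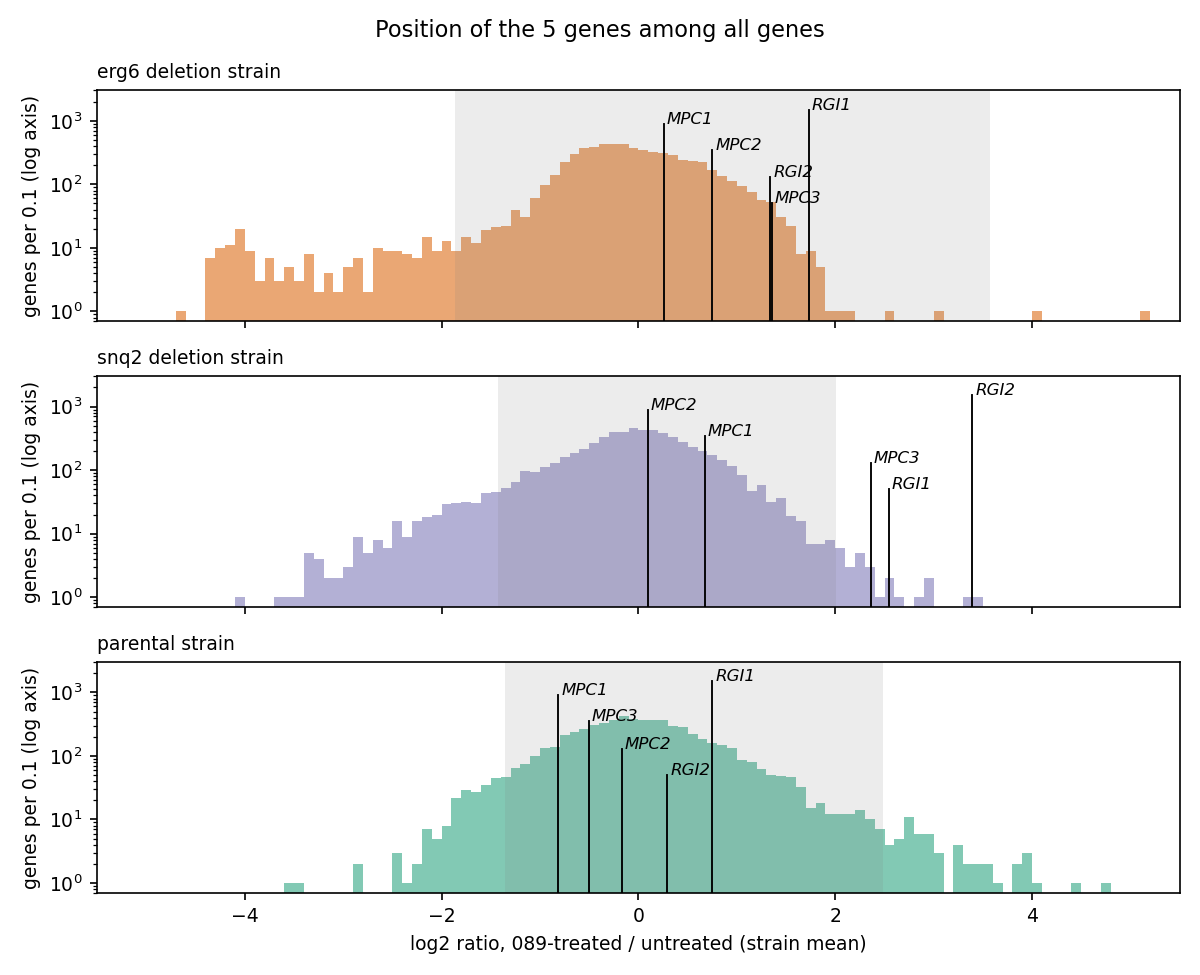
Histograms of the strain mean log2 ratio of treated over untreated cells (horizontal axis) over all 6362 genes, as genes per 0.1 on a log axis (vertical), with the deletion strains above the parental strain; black lines mark the 5 genes and grey shading the central 95% of the 683 control spots. In the snq2 deletion strain MPC3, RGI1 and RGI2 lie at 2.36, 2.55 and 3.39, beyond the shading that ends at 2.00, while in the erg6 deletion strain all 5 lie within shading that ends at 3.57.

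Within an array, the difference between the log2 ratios of 2 genes says how treatment changed the balance of their transcripts, and shifting an array up or down does not alter it. The balance of MPC3 over MPC2 changed by 0.58 and 0.64 in the erg6 deletion strain, by 2.16 and 2.37 in the snq2 deletion strain and by -0.45 and -0.22 in the parental strain. The ratios thus read as relatively more of the respiring subunit in both deletion strains and relatively less in the parental strain. The MPC3 to MPC2 ratio changed by a factor of 1.52, 4.81 and 0.794 in the order above. These are changes in a balance and not the levels of the transcripts, which the ratios do not give. MPC2 and MPC3 are close paralogs, and how far each probe reads the other transcript was not tested.

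MPC3 against the common subunit MPC1 gave 1.08 and 1.12 in the erg6 deletion strain, 1.73 and 1.64 in the snq2 deletion strain and 0.32 and 0.30 in the parental strain. All 6 arrays lay on 1 side of 0. MPC2 against MPC1 gave 0.50 and 0.48 in the erg6 deletion strain, -0.43 and -0.73 in the snq2 deletion strain, and 0.76 and 0.52 in the parental strain. In the snq2 deletion strain alone MPC2 thus had a lower ratio than MPC1. The paralogs RGI2 and RGI1 differed by -0.50 and -0.29 in the erg6 deletion strain, 0.89 and 0.80 in the snq2 deletion strain and -0.47 and -0.45 in the parental strain, so that RGI2 had the higher ratio of the pair in the snq2 deletion strain and RGI1 in the others.

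**Figure D3:**
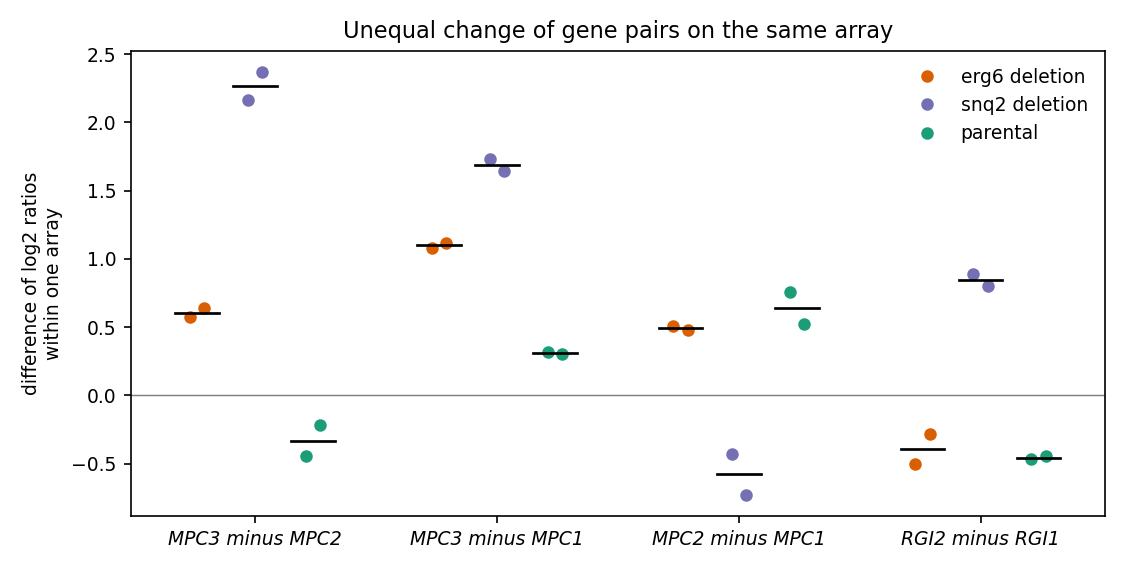
Difference between the log2 ratios of 2 genes on the same array (vertical axis), for MPC3 minus MPC2, MPC3 minus MPC1, MPC2 minus MPC1 and RGI2 minus RGI1, with 1 point per array and the deletion strains left of the parental strain. MPC3 minus MPC2 averages 2.27 in the snq2 deletion strain and -0.33 in the parental strain.

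Pyruvate that enters the matrix is used by pyruvate dehydrogenase, and 12 genes of this complex and its regulators were on the array. In the erg6 deletion strain 4 of them were higher in treated cells and 3 lower at an adjusted p of 0.05 (limma, Benjamini-Hochberg over all genes), with a median of 0.18 against -0.11 over all genes, where 54.7% of all genes passed, 23.2% higher and 31.5% lower. These are 1476 genes higher and 2002 lower, against 1743 higher and 1578 lower with each array centred on its median gene. In the snq2 deletion strain 6 were higher and 2 lower with a median of 0.29 against -0.03, where 51.5% passed, 25.3% higher and 26.2% lower. In the parental strain 1 was higher and 4 lower with a median of -0.20 against -0.02, where 54.0% passed, 27.3% higher and 26.7% lower. The count of 8 in the snq2 deletion strain was 4 or 5 when either of its own arrays or either parental array was left out, and that of 5 in the parental strain was 1 without either parental array.

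PDA1, the alpha subunit of the enzyme of the complex that acts on pyruvate, rose by 1.49 ± 0.08 in the erg6 deletion strain and by 1.25 ± 0.08 in the snq2 deletion strain (standard error), at adjusted p of at most 0.000291. Its value in the parental strain was 0.23, at an adjusted p of 0.0517, and passed with centred arrays (0.0376) and with array weights (0.0281). LPD1, a dehydrogenase subunit shared with other mitochondrial complexes, rose by 1.03 and 0.68 in the erg6 deletion and snq2 deletion strains and fell by 1.12 in the parental strain, with adjusted p of at most 0.00164.

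The cytosolic pyruvate list held 16 genes for forming and using pyruvate and for steps on to ethanol and acetyl-CoA, some mitochondrial. Of the 16, 9 were higher and 3 lower in the erg6 deletion strain (median 0.53). In the snq2 deletion strain 7 were higher and 3 lower (median -0.01, and 0.01 with centred arrays). In the parental strain 6 were higher and 5 lower (median 0.25). Of all genes 54.7%, 51.5% and 54.0% passed in the same order of strains. The 11 of the parental strain were 6 without parental replicate 1. PDC1, the main pyruvate decarboxylase of fermentation, rose by 0.81 in the erg6 deletion strain, fell by 1.52 in the snq2 deletion strain and rose by 1.57 in the parental strain, with adjusted p of at most 0.00134. PYC1, which makes oxaloacetate from pyruvate, rose by 0.96 and 0.41 in the erg6 deletion and snq2 deletion strains and fell by 1.13 in the parental strain (adjusted p of at most 0.0148). The PYC1 call in the snq2 deletion strain did not hold without either of its arrays, at adjusted p of 0.0814 and 0.117, over a range of 0.00682 to 0.117 for its alternatives other than a 1.5-fold minimum. ALD4, a mitochondrial aldehyde dehydrogenase, rose by 1.43 and 1.62 in the deletion strains and fell by 1.35 in the parental strain, with adjusted p of at most 0.000653.

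PDC5, a paralog of PDC1, fell by 2.26 in the snq2 deletion strain at an adjusted p of 0.000218. It was called higher, by 0.43, in the erg6 deletion strain at an adjusted p of 0.0291, but not without replicate 1 of that strain, where its value was 0.32. The call was also lost with quantile normalization (0.0606), with array weights (0.0667) and with the arrays of that strain alone (0.0837). Probes for PDC1 and PDC5, and for PYC1 and its paralog, could share signal between near-identical genes, and this was not tested.

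Of 12 genes for the entry of lactate, pyruvate, acetate and glycerol into metabolism, 7 were higher and 3 lower in the erg6 deletion strain (median 0.85). In the snq2 deletion strain 7 were higher and 2 lower (median 0.91), and in the parental strain 0 higher and 6 lower (median -0.46). Over all genes 23.2%, 25.3% and 27.3% were higher and 31.5%, 26.2% and 26.7% lower, in the same order of strains. The 6 of the parental strain were 2 without parental replicate 1 and 3 without replicate 2. JEN1, the permease for lactate and pyruvate at the plasma membrane, rose by 1.17 and 1.27 in the erg6 deletion and snq2 deletion strains and fell by 1.07 in the parental strain (adjusted p of at most 0.00253). GUT2, the mitochondrial glycerol-3-phosphate dehydrogenase, rose by 1.15 and 1.04 and fell by 0.68 in the same order (adjusted p of at most 0.00171). ADY2, an acetate transporter, rose by 1.80 and 2.31 in the deletion strains, at adjusted p of at most 0.00036. Its parental value of -0.43 was called at an adjusted p of 0.0176. The call did not hold without parental replicate 1 (value -0.53) or 2 (value -0.34), nor with arrays scaled to equal spread (adjusted p 0.0577). MAE1, the mitochondrial malic enzyme that makes pyruvate inside the matrix, was named after its values were seen. It fell by 3.35 in the snq2 deletion strain at an adjusted p of 0.000218. In the erg6 deletion strain it had -0.65, called at an adjusted p of 0.0267. The call did not hold without erg6 deletion replicate 1 (value -0.56) or 2 (value -0.75). It was also lost with centred arrays (adjusted p 0.0518) and with array weights (0.0598).

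**Figure D4:**
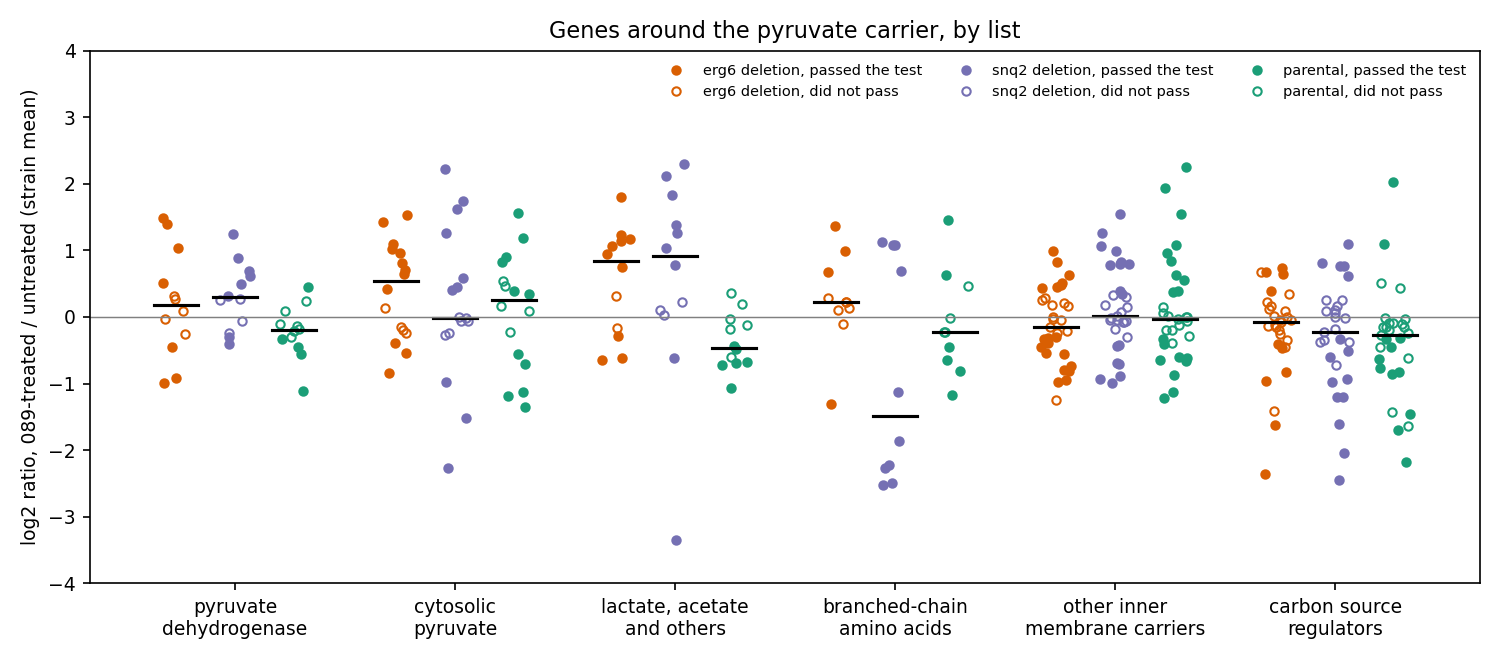
Strain mean log2 ratio of treated over untreated cells (vertical axis) of each gene in the 6 lists around pyruvate (horizontal axis), with the deletion strains left of the parental strain; filled points passed the limma test at an adjusted p of 0.05, open points did not, and bars mark list medians. The list with lactate and acetate entry has medians of 0.85 and 0.91 in the erg6 deletion and snq2 deletion strains and -0.46 in the parental strain, and its lowest point, at -3.35, is MAE1.

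Mitochondria also use pyruvate for branched-chain amino acids, and of 10 such genes 3 were higher and 1 lower in the erg6 deletion strain (median 0.23). In the snq2 deletion strain 4 were higher and 6 lower (median -1.50), and in the parental strain 2 higher and 4 lower (median -0.23). Over all genes 23.2%, 25.3% and 27.3% were higher and 31.5%, 26.2% and 26.7% lower, in the same order of strains. The 6 of the parental strain were 2 without parental replicate 1 and 3 without replicate 2. BAT1, the mitochondrial branched-chain aminotransferase, rose by 0.68 in the erg6 deletion strain and fell by 2.27 in the snq2 deletion strain (adjusted p of at most 0.00316), while its parental value was -0.01. LEU9, an isopropylmalate synthase with a close paralog, fell by 1.32 in the erg6 deletion strain and rose by 1.12 and 1.45 in the snq2 deletion and parental strains (adjusted p of at most 0.000381).

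Of the 31 other carriers of the inner membrane, 7 were higher and 12 lower in the erg6 deletion strain (median -0.15). In the snq2 deletion strain 10 were higher and 7 lower (median 0.02), and in the parental strain 10 higher and 9 lower (median -0.04). The called genes made up 61.3%, 54.8% and 61.3% of the list in the same order. These shares lay near the 54.7%, 51.5% and 54.0% of all genes, so the counts are a description. The 17 calls of the snq2 deletion strain were 11 without its replicate 1 and 9 without its replicate 2, and the 19 of the parental strain were 10 and 9 without its arrays. The 19 of the erg6 deletion strain were 8 when only the arrays of that strain entered the fit. HEM25, a glycine carrier, fell by 0.80 in the erg6 deletion strain and rose by 1.27 and 1.93 in the snq2 deletion and parental strains (adjusted p of at most 0.00146). MRS3, an iron carrier with a close paralog, fell by 0.97 in the erg6 deletion strain (adjusted p 0.00136). Its parental value was -0.60, called at 0.00503 and not without parental replicate 2 (0.0656), within a range of 0.00246 to 0.0656, and its snq2 deletion value was -0.31 (adjusted p 0.0521, and 0.0409 with quantile normalization).

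Of 29 regulators of growth by carbon source, 4 were higher and 6 lower in the erg6 deletion strain (median -0.08). In the snq2 deletion strain 5 were higher and 10 lower (median -0.23), and in the parental strain 2 higher and 10 lower (median -0.27). Over all genes 23.2%, 25.3% and 27.3% were higher and 31.5%, 26.2% and 26.7% lower, in the same order of strains. With centred arrays the list median in the erg6 deletion strain was 0.03, on the other side of 0. The 10 of the erg6 deletion strain were 5 when only the arrays of that strain entered the fit. CAT8, an activator of genes for gluconeogenesis, rose by 0.73 and 1.10 in the erg6 deletion and snq2 deletion strains (adjusted p of at most 0.00289) and had -0.16 in the parental strain. HAP4, the activating subunit of the Hap complex for respiration genes, had 0.16 and 0.10 in the deletion strains, which did not pass the test, and fell by 2.18 in the parental strain (adjusted p 0.000215). ADR1, an activator of genes for ethanol and fatty acid use, had 0.02 in the erg6 deletion strain and fell by 1.61 and 1.46 in the snq2 deletion and parental strains (adjusted p of at most 0.00128). SIP4, an activator that binds the same promoter element as Cat8, was called higher by 0.64 in the erg6 deletion strain at an adjusted p of 0.0435, and not without either array of that strain (0.0546 and 0.210) or either snq2 deletion array (0.0873). The call was also lost with the replicate number as a block (0.0649), with array weights (0.108) and with the arrays of that strain alone (0.0580), within a range of 0.0156 to 0.210.

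MSN4, an activator of stress genes, fell by 1.62 in the erg6 deletion strain, by 2.44 in the snq2 deletion strain and by 1.69 in the parental strain (adjusted p of at most 0.000381), the last by 2.56 with quantile normalization. RTG2, which carries signals from mitochondria to the nucleus, fell by 0.96 in the erg6 deletion strain and rose by 0.81 and 2.03 in the snq2 deletion and parental strains (adjusted p of at most 0.0012).

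The responses of the deletion strains were also set against that of the parental strain over all genes. For the erg6 deletion strain 56.8% of all genes differed, 25.4% higher and 31.4% lower, and for the snq2 deletion strain 39.2% differed, 16.4% higher and 22.8% lower. Of the 12 lactate and acetate entry genes, 6 were higher and 1 lower for the erg6 deletion strain (median 0.90), and 8 higher and 2 lower for the snq2 deletion strain (median 1.48). Of the 12 pyruvate dehydrogenase genes, 5 were higher and 3 lower for the erg6 deletion strain (median 0.43), and 6 higher and 1 lower for the snq2 deletion strain (median 0.43). The branched-chain list was split by strain, with 6 of 10 higher and 1 lower for the erg6 deletion strain (median 0.81), against 1 higher and 6 lower for the snq2 deletion strain (median -0.86). The medians over all genes were -0.13 and -0.09 for these differences, in the same order of strains.

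The genes beside the 5 on their chromosomes, within 2 ORF numbers, gave 21 features, of which 18 were in the RefSeq gene table. In the erg6 deletion strain 6 were higher and 4 lower, beside 23.2% and 31.5% of all genes. In the snq2 deletion strain 8 were higher and 3 lower, beside 25.3% and 26.2%. In the parental strain 4 were higher and 9 lower, beside 27.3% and 26.7%. With so many genes called, these counts are a description of the features and not a result about their position. LSC2, next to MPC3 and encoding a subunit of succinyl-CoA ligase, rose by 1.47 and 1.61 in the erg6 deletion and snq2 deletion strains (adjusted p of at most 0.000665) and had 0.08 in the parental strain. On the other side of MPC3, YGR242W, which is not in that table, had 0.05 and -0.16 in the deletion strains and fell by 1.73 in the parental strain (adjusted p 0.00175). YAP1801, a clathrin assembly protein gene next to MPC2, rose by 1.00 and 1.34 in the deletion strains and fell by 0.78 in the parental strain (adjusted p of at most 0.00252). MOT2, next to RGI1 and encoding a ubiquitin ligase of the Ccr4-Not complex, had 0.28 in the erg6 deletion strain (adjusted p 0.0681, and 0.0190 to 0.206 across its alternatives) and fell by 1.02 and 1.43 in the snq2 deletion and parental strains (adjusted p of at most 0.00107). On the other side of RGI1, YER066C-A, not in that table, had -0.70, 1.15 and 2.49 in the erg6 deletion, snq2 deletion and parental strains. In the same order RRT13 had 0.58, 0.90 and 0.34, ICL1 1.39, 1.82 and -0.80, and ARG56 -0.47, -0.83 and -0.49. All of these passed but the RRT13 value of 0.34. VHR1, next to RGI2, had -0.49 in the erg6 deletion strain (adjusted p 0.00919) and -0.54 in the parental strain (0.00633). Neither call held without 1 array. The first was lost without erg6 deletion replicate 2 (value -0.38), and the second without parental replicate 1 (value -0.45). The first was also lost with the erg6 deletion arrays alone (adjusted p 0.0668). Set against the parental strain, 9 of the 21 features were higher and 3 lower in the erg6 deletion strain, beside 25.4% and 31.4% of all genes. In the snq2 deletion strain 8 were higher and 2 lower than in the parental strain, beside 16.4% and 22.8%. KXD1 and YGL081W, the features directly beside MPC1, did not pass in any strain, though both passed in the parental strain without either erg6 deletion array, at adjusted p of 0.0492 for KXD1 and 0.0116 for YGL081W. Of the next ones, DBP3 had 0.63 (adjusted p 0.0163) and MIY3 -0.38 (adjusted p 0.0405) in the parental strain, and neither passed in a deletion strain. The parental call of DBP3 did not hold without parental replicate 1 (0.113) or 2 (0.110), within a range of 0.00580 to 0.113. That of MIY3 did not hold without parental replicate 1 (value -0.22) or 2 (value -0.54), or without either snq2 deletion array. It was also lost with the parental arrays alone (adjusted p 0.0524).

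**Figure D5:**
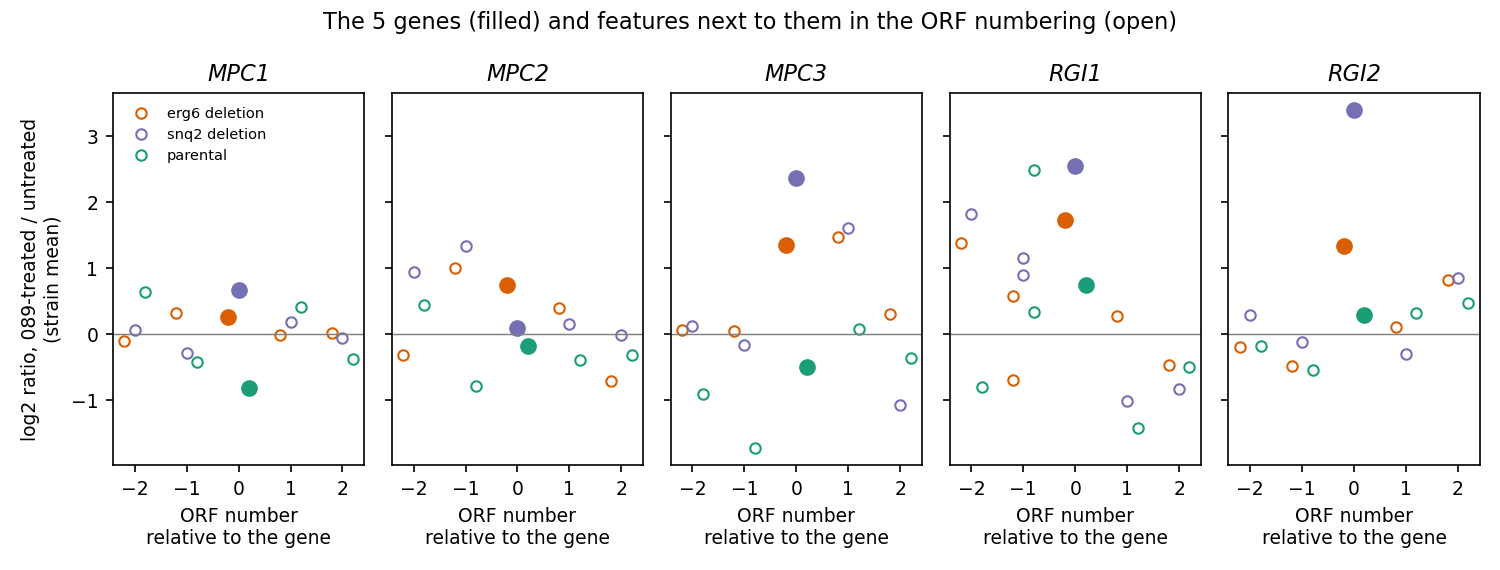
Strain mean log2 ratio of treated over untreated cells (vertical axis) of the 5 genes (filled, at 0) and of the features within 2 ORF numbers of each (open, horizontal axis), coloured by strain, with the deletion strains left of the parental strain. In the snq2 deletion strain MPC3 at 2.36 stands between YGR242W at -0.16 and LSC2 at 1.61.

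Likeness of pattern was measured as the root mean square difference over the 6 array values, among 5821 other genes with a RefSeq name. The closest to MPC1 were RTC3 at 0.084, HBT1 at 0.152 and TSA2 at 0.164, against a median of 0.875 over all genes. The closest to MPC2 were SPP2 at 0.079, YNG2 at 0.108 and YKE2 at 0.121, against 0.756. These genes lay within 0.2 of MPC1 and MPC2 on average over the arrays.

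The closest to MPC3 were SPG4 at 0.258, CTA1 at 0.264 and ETR1 at 0.286, against a median of 1.75. The closest to RGI1 were CLN3 at 0.241, MXR2 at 0.395 and ADH2 at 0.456, against 1.95. The closest to RGI2 were SIP18 at 0.431, NCE103 at 0.474 and AZR1 at 0.575, against 2.22. By Pearson correlation over the same arrays in place of this difference, 0 of the 3 closest genes were shared for any of the 5 genes, so these names depend on the measure. Among the 5 genes themselves the smallest differences were 0.584 for MPC1 and MPC2 and 0.603 for RGI1 and RGI2, while MPC2 and MPC3 differed by 1.37. The 2 smallest are not alike in rank among all genes. By this difference MPC2 was number 772 from MPC1, and MPC1 number 1637 from MPC2. RGI2 was number 13 from RGI1, RGI1 number 5 from RGI2, and MPC3 number 11 from RGI2, at 0.760.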

How the data were processed

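The authors deposited the log ratios of 7045 features on each array, 0 of them missing. How the background was corrected, how arrays were normalized, which spots were filtered, and the log base and sign of the values were not stated in the sources at hand. The deposited values were read as log2 ratios of treated over untreated cells. Their largest, 5.52, would on a log10 scale exceed what a 16-bit scanner can record, while a natural log would make each fold larger. Blank (144) and empty (539) spots took no part in the tests. RefSeq R64 locus tags matched 5826 of the 6362 genes and not the other 536, and served for names alone, with no coordinates since the array's build was not established.

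One mean per strain was fitted to the 6 arrays with limma 3.58.1 under R 4.3.3 (lmFit, then eBayes, with 3 residual and 2.45 prior degrees of freedom). Benjamini-Hochberg adjustment ran over 6362 genes per contrast, at a threshold of 0.05. The p-values measure the spread between replicate arrays, with 1 estimate per gene shared by the 3 strains. The erg6 deletion strain, whose replicates correlated least (r = 0.713), thus had no estimate of its own. The code of the fit was run on simulated data with independent noise and few changed genes. That setting differs from these arrays, so the run does not bear on the calls given here. The 5 genes and the lists were chosen with earlier results of these data known, so the 5 genes have no test and list counts are a description. In each list and strain the 1 gene with the smallest p was named, together with PDA1, PYC1, PDC1, JEN1, CAT8, HAP4, ADR1 and SIP4, while MAE1 and the neighbours were named after their values were seen. DTP1, of the list of 32 carriers, was not found by symbol and was left out. Alternatives were other centring, scaling and normalization of the arrays, leaving out each array, a replicate block, other variance settings and a minimum fold of 1.5. All ranges of adjusted p given for single genes leave out the minimum fold of 1.5.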

Additional observations from a re-analysis of the deposited data

Results flagged for a closer look

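MPC1, MPC2 and MPC3 had both replicates above 0 in each deletion strain and both below 0 in the parental strain, as did 7.39% of all genes. For MPC2 replicate 1 of the snq2 deletion strain was 0.0054, barely above 0. The differences of the erg6 deletion minus the parental strain were 1.07 for MPC1, 0.92 for MPC2 and 1.86 for MPC3, and those of the snq2 deletion minus the parental strain were 1.49, 0.27 and 2.86 for the same genes. These differences were not tested, since the genes were chosen with the values known.

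For genes of the lists and the neighbours, the difference between strains was itself tested (limma, Benjamini-Hochberg over 6362 genes), and those below passed an adjusted p of 0.05. Against 56.8% of all genes called for the erg6 deletion strain and 39.2% for the snq2 deletion strain, being called is common here. The difference of the erg6 deletion minus the parental strain was above 0 for PDA1 (1.25), LPD1 (2.15), PYC1 (2.10), ALD4 (2.78), JEN1 (2.24), ADY2 (2.24), GUT2 (1.83), BAT1 (0.69), CAT8 (0.89), HAP4 (2.34) and ADR1 (1.48). It was below 0 for PDC1 (-0.76), LEU9 (-2.77), HEM25 (-2.73) and RTG2 (-2.99). With quantile normalization the difference of PDC1 was -0.49.

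The difference of the snq2 deletion minus the parental strain was above 0 for PDA1 (1.01), LPD1 (1.80), PYC1 (1.54), ALD4 (2.97), JEN1 (2.33), ADY2 (2.74), GUT2 (1.72), CAT8 (1.25) and HAP4 (2.28). It was below 0 for PDC1 (-3.09), PDC5 (-2.35), MAE1 (-3.31), BAT1 (-2.26), HEM25 (-0.67), RTG2 (-1.22) and MSN4 (-0.75). The call of HEM25 did not hold without parental replicate 2 (0.0697) or snq2 deletion replicate 2 (0.0598), within a range of 0.00691 to 0.460, the highest under quantile normalization. That of MSN4 did not hold without the same arrays (0.0651 and 0.0628), within a range of 0.00596 to 0.390, the highest under quantile normalization too. With that normalization the difference of RTG2 was -0.73 and still passed, at an adjusted p of 0.0094.

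Among the neighbours, not all listed here, the erg6 deletion minus parental difference was 2.19 for ICL1 and -3.19 for YER066C-A, both near RGI1. It was 1.39 for LSC2, 1.71 for MOT2, 1.78 for YAP1801, 1.78 for YGR242W and -0.73 for DBP3. That of DBP3 did not hold without either parental array or either erg6 deletion array, where its values lay between -0.74 and -0.72. It was also lost with centred arrays (adjusted p 0.0501), with arrays scaled to equal spread (0.0655) and with quantile normalization (0.0661). The snq2 deletion minus parental difference was 1.53 for LSC2, 2.12 for YAP1801 and 1.57 for YGR242W, and that of YGR242W did not hold without parental replicate 1 (0.0536) or 2 (0.0724) or snq2 deletion replicate 2 (0.0538), within a range of 0.00516 to 0.0724. With quantile normalization its difference was 2.38. For the snq2 deletion minus the parental strain, ICL1 had 2.62 and YER066C-A had -1.34 on the deposited values.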

How the results depend on the processing

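No value of the 5 genes changed sign in any of the alternatives tried. Leaving out 1 of 2 arrays cannot, by construction, move a strain mean by more than 1 standard deviation of its replicates, so that alternative says little about these values. Other centring, scaling or normalization of the arrays changed 29 of their values by more than 1 standard deviation of the replicates. With each array centred on its median gene, the erg6 deletion values were 0.37 for MPC1, 0.86 for MPC2, 1.46 for MPC3 and 1.45 for RGI2, and the differences from the parental strain were 1.01 for MPC2 and 1.13 for RGI2. With arrays scaled to equal spread, they were 0.36, 0.85, 1.45 and 1.43 in the erg6 deletion strain for the same 4 genes, 2.70 for RGI1 and 3.59 for RGI2 in the snq2 deletion strain, and in the differences from the parental strain 1.00 for MPC2 and 1.13 for RGI2 (erg6 deletion), and 1.96 for RGI1 and 3.29 for RGI2 (snq2 deletion). With quantile normalization, MPC3 had 1.55, RGI1 2.22 and RGI2 1.52 in the erg6 deletion strain, RGI1 3.01 and RGI2 4.07 in the snq2 deletion strain, RGI1 0.68 and RGI2 0.25 in the parental strain, and the differences from the parental strain were 0.97 for MPC2, 2.07 for MPC3, 1.54 for RGI1 and 1.27 for RGI2 (erg6 deletion) and 2.33 for RGI1 and 3.81 for RGI2 (snq2 deletion). Centring subtracts each array's median gene, -0.11 on both erg6 deletion arrays, and so moves every gene of an array by the same amount. Why scaling and quantile normalization changed the other values was not tested.

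Genes called over the whole array numbered 3478 in the erg6 deletion strain, 3276 in the snq2 deletion strain and 3434 in the parental strain, and 3615 and 2495 for the differences of the erg6 deletion and snq2 deletion strains from the parental strain. Against a 1.5-fold minimum they were 612, 857, 988, 1696 and 702 in the same order, and with the erg6 deletion arrays alone 1946. Leaving out 1 array gave 2943 to 3192, 1672 to 3656, 1914 to 3829, 2613 to 3665 and 1202 to 2889. Of 2025 values of the named genes under the other alternatives, 47 calls were lost, 31 gained and 0 reversed, and the 1.5-fold minimum ended 28 of 100 calls. Under that minimum the list counts were lower as well, such as 3 in place of 12 for the cytosolic pyruvate list in the erg6 deletion strain.

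Replicate numbers are shared by the strains, and the same-numbered arrays deviated together by r = -0.0020 (erg6 and snq2 deletion), 0.0948 (erg6 deletion and parental) and -0.0423 (snq2 deletion and parental), so the numbers were not taken to pair samples. A replicate block gave 3306, 3103, 3251, 3468 and 2187 called genes in the order above. In this balanced design the block leaves the 25 strain means and differences of the 5 genes as they are, and of the named genes' calls it ended that of SIP4 in the erg6 deletion strain. Signal over background was not analysed here, and 2 arrays per strain limit how precise the values are.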
